A study of Mus musculus with 33 samples.

Results

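The sleep-loss response of the mouse frontal cortex was compared between Mef2c-cKO Camk2a-Cre mice, called Mef2c-cKO below, and Mef2c f/f mice, gene by gene. For each gene the difference between sleep-deprived (SD) and control sleep (CS) mice was taken within each genotype on a log2 scale, and the difference of those differences, Mef2c-cKO minus Mef2c f/f, is called the interaction. A gene entered when it reached at least 1 CPM, a read count scaled to a fixed library total, in all replicates of at least 1 of the 4 groups, which 12860 of 21565 genes did. The groups held 4 Mef2c f/f CS, 3 Mef2c f/f SD, 3 Mef2c-cKO CS and 3 Mef2c-cKO SD mice, 13 of the 33 samples of the study. All were adult males on the C57BL/6J background. CS mice were left to sleep and SD mice were kept awake for 6 hr. Both genotypes carried loxP sites around an exon of Mef2c. In Mef2c-cKO mice a Camk2a promoter also drove Cre recombinase, which acts mainly in forebrain excitatory neurons. Some offspring of the fathers used for breeding were heterozygous for a recombined allele in tail tissue, per the methods of the study, so that 1 allele could be lost in all their cell types. These included all but 1 of the 3 Mef2c-cKO CS animals, and the labels do not say which. The floxed mice were the control for the loxP sites, but no group carried Cre without them.

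MEF2C is a transcription factor of the MADS-box family that binds AT-rich sites in promoters and enhancers of neuronal genes. In cortical neurons it limits the number of excitatory synapses, and its activity is set by calcium signals, by phosphorylation and by class IIa histone deacetylases that bind it and repress its targets. Sleep loss is known to induce activity-dependent transcription factors, chaperones and glucocorticoid targets in cortex and to lower many synaptic genes. An interaction asks whether that response differs between Mef2c-cKO and Mef2c f/f mice. With these groups, effects of Cre, of an allele lost in other cells and of MEF2C loss in excitatory neurons cannot be told apart.

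Libraries held 18935045 to 94678945 reads assigned to genes. Levels are given as rescaled CPM, the deposited CPM divided by a library factor that ranged from 0.984 to 1.142. Some libraries stood apart within their group. In Mef2c-cKO CS library 8 the summed level of 15 microglia and macrophage markers was 801 rescaled CPM, against 254 and 308 in the other Mef2c-cKO CS libraries. In Mef2c-cKO SD library 6 the summed level of 20 immediate early transcription factors was 518, against 267 and 235 in the rest of that group. Of these 20 genes, 17 passed the filter. In Mef2c f/f CS library 3 several neuronal genes were high, with Adarb2 at 540.0 against 186 to 228 in the other 3. Counts that lead a result below were also taken without Mef2c-cKO CS library 8 and Mef2c-cKO SD library 6, a choice made after seeing the data. Of 23 excitatory neuron markers 22 passed the filter, and the choroid plexus and striatal markers, genes of tissues next to the frontal cortex, summed to 776 to 1320.4 in Mef2c f/f CS, 725 to 1153 in Mef2c f/f SD, 614 to 1794 in Mef2c-cKO CS and 826 to 1350.3 in Mef2c-cKO SD. In whole tissue, fewer cells of a type and less RNA per cell cannot be told apart.

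Mef2c itself was at 1207, 1098, 1203 and 1080.1 rescaled CPM in Mef2c f/f CS. It was at 1249.7, 1135 and 1406 in Mef2c f/f SD, at 957, 1608 and 1727 in Mef2c-cKO CS and at 1499.8, 1116 and 1317 in Mef2c-cKO SD. The genotypes overlapped. The mean was 1371 ± 296 in the 6 Mef2c-cKO libraries and 1197 ± 111 in the 7 Mef2c f/f libraries (SD), a log2 difference of 0.17 (two-sided exact permutation test over 1716 rearrangements, p = 0.228). Without Mef2c-cKO CS library 5 the difference was 0.27 and the same exact permutation test gave p = 0.0404. The gene-level count adds up all exons in all cells, and removal of the floxed exon was not measured here. The Mef2c interaction was -0.23 (SE 0.26, limma, adjusted p = 0.813).

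Across the transcriptome 1 gene, Cep295, had an interaction past an adjusted p of 0.05 (limma, 0.00778% of the 12860 genes tested). The same gene was the 1 called by edgeR. At an unadjusted p of at most 0.05 the interaction was above 0 for 485 genes (3.77%) and below 0 for 520 (4.04%), 1005 in all, where 643 is 5% of the genes tested. DESeq2 on the reads recovered from the CPM values called 59 of 12823 genes (0.46%), Cep295 among them, and each of the 59 also had an unadjusted limma p of at most 0.05. The median interaction was -0.0022 and the median SE was 0.17. The 95% interval, before any adjustment, reached a median of 0.38 to either side on the log2 scale with 3 or 4 libraries a group. It is not a limit of detection, since larger interactions also did not pass after adjustment over 12860 genes. Ptpn14 at 1.90 and Cldn11 at -0.90 were among these (limma, adjusted p = 0.127 for both). Within a genotype few genes responded at an adjusted p of at most 0.05 and a log2 fold change of at least 0.3 in size. These were 9 in Mef2c-cKO (0.07%), all up, and 5 in Mef2c f/f (0.0389%), 2 up and 3 down. DESeq2 gave 26 and 288, and limma with array quality weights 34 and 1602, so the order of the genotypes in these calls depends on the tool. The Mef2c f/f count was 0 in 9 of the 13 fits that left out 1 library and 109 without Mef2c f/f CS library 1. In the 13 wild-type CS and SD mice of the same study, 5826 of 12913 genes passed the same thresholds (45.1%). All 9 and all 5 had an unadjusted interaction p of at most 0.05, a measure that shares the libraries of the response that chose them. Counted by an unadjusted response p of at most 0.05 with no fold threshold, limma gave 556 genes in Mef2c-cKO and 1933 in Mef2c f/f. edgeR gave 616 and 1952 on that measure, where 643 is 5% of the genes tested.

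**Figure D1:**
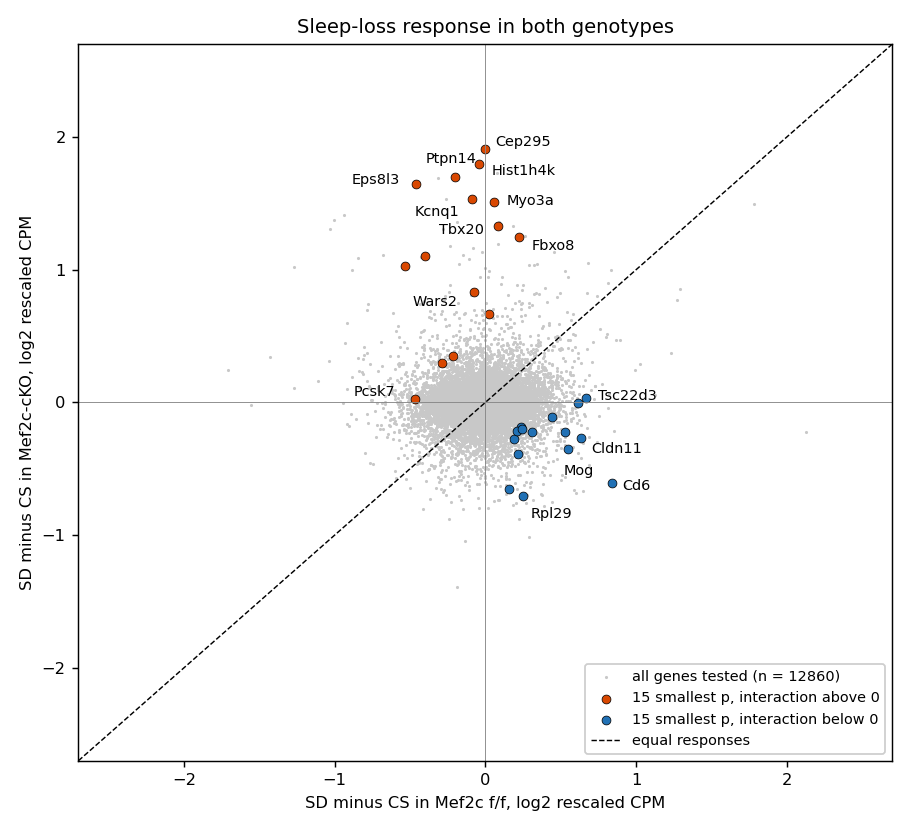
Each point is a gene, with its SD minus CS difference in Mef2c f/f mice on the x axis and in Mef2c-cKO mice on the y axis, both in log2 rescaled CPM, for 12860 genes. Coloured points are the 15 genes of smallest interaction p above 0 (orange) and below 0 (blue), the dashed line marks equal responses, and Cep295 sits at 1.91 in Mef2c-cKO against -0.01 in Mef2c f/f.

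Cep295 encodes a centrosomal protein that newly made centrioles need to become centrosomes. It lies at chr9:15316915-15357788 (GRCm38). Its level was 68.6, 60.7, 61.0 and 55.3 in Mef2c f/f CS, 59.8, 61.0 and 62.2 in Mef2c f/f SD, 76.1, 69.6 and 66.2 in Mef2c-cKO CS and 281, 259 and 259 in Mef2c-cKO SD, in rescaled CPM. The 3 Mef2c-cKO SD libraries were far above the other 10, which lay between 55.3 and 76.1. The response was 1.91 (SE 0.08, adjusted p = 6.56e-08) in Mef2c-cKO and -0.01 (SE 0.08, adjusted p = 0.981) in Mef2c f/f. The interaction was 1.91 (SE 0.11, 95% interval 1.67 to 2.16, limma, adjusted p = 3.49e-06) and it passed under all 31 alternatives run for it, at 1.86 to 1.97. In wild-type mice the direction was the other way, from a mean of 78.3 in CS to 54.4 in SD (log2 -0.50, adjusted p = 0.00639). Of 15 tested genes within 1000000 bases of Cep295, 0 had an interaction above 0 at an unadjusted limma p of at most 0.05, and the smallest such p in either direction was 0.0561, for Slc36a4. Their median interaction was -0.02.

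Promoters from the RefSeq table (GRCm38.p6) are printed here and with the myelin genes below, as the sequences next to the starts of transcripts described in full. They belong to the 2 genes per direction of largest interaction among the 30 named by their p that had an entry. Of the 30 genes named by their p, 22 had an entry. The 250 bases before the start of Cep295 lie at chr9:15357789-15358038 on the minus strand and those of Eps8l3 at chr3:107876980-107877229 on the plus strand. Both strands were searched for the MEF2 consensus site, for the E-box CACGTG bound by the clock activators and for the core site TGACG of the cyclic AMP response element. Capitals mark the single match, an E-box that begins 92 bases before the start of Cep295. Over 32851 promoters of this length, 2.92% held the MEF2 consensus, 6.02% the E-box and 17.8% the core site.
Cep295: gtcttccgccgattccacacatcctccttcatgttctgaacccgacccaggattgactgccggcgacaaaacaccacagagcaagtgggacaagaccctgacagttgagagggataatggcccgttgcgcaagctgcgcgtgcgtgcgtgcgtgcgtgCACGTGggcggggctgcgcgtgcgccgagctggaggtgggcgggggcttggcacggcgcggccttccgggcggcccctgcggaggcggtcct
Eps8l3: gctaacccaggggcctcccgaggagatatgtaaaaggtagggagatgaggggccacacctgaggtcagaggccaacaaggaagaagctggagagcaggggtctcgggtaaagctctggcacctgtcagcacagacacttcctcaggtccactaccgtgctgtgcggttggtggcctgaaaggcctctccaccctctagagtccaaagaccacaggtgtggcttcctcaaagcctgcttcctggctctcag

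Beyond Cep295, the 14 genes of smallest unadjusted p with an interaction above 0 did not pass (limma, adjusted p from 0.127 to 0.325). Of all 15, 14 were called by DESeq2, 15 had a Mef2c-cKO response above 0, 4 had a Mef2c f/f response above 0, and they lay on 9 chromosomes. In 10 of the 15 the 3 Mef2c-cKO SD libraries were above the other 10 libraries, a separation that 125 of all genes tested showed (0.972%). Eps8l3 and Usp50 passed the filter of 1 CPM only through Mef2c-cKO SD, and Tbx20 and Aim1 only through the Mef2c-cKO groups. A high level in Mef2c-cKO SD thus helped them into the test. The p that chose these genes also rests on the same libraries, so all these counts are a description.

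Myo3a, a class III myosin known from the hair bundles of the inner ear, was at 86.9, 50.0, 46.1 and 63.9 in Mef2c f/f CS, 74.0, 53.0 and 61.7 in Mef2c f/f SD, 60.9, 63.7 and 57.4 in Mef2c-cKO CS and 187, 185 and 152 in Mef2c-cKO SD. The 3 Mef2c-cKO SD libraries were above the rest, and the other groups overlapped. The response was 1.51 in Mef2c-cKO (adjusted p = 0.00854) and 0.06 in Mef2c f/f, with an interaction of 1.45 (SE 0.26, adjusted p = 0.160). In wild-type mice Myo3a was at 0.741 to 1.96 in all 13 CS and SD libraries, below each of the 13 Mef2c f/f and Mef2c-cKO libraries.

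Tbx20, a T-box transcription factor known from heart development, was at 44.8, 56.7 and 37.2 in Mef2c-cKO CS and at 113, 129 and 104 in Mef2c-cKO SD. In the Mef2c f/f libraries it was at 0 to 0.0543, at or under the level of 3 reads, and the highest of the 13 wild-type CS and SD libraries was at 0.0174. The Mef2c-cKO SD libraries did not overlap the Mef2c-cKO CS libraries (response 1.33, SE 0.15, adjusted p = 0.00328). No fold can be given in Mef2c f/f, so the fitted interaction of 1.24 (adjusted p = 0.127) reads the Mef2c-cKO response alone, and it was -2.14 with edgeR and -0.999 with DESeq2.

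Ptpn14, a protein tyrosine phosphatase, was at 7.45, 10.96, 14.95 and 9.42 in Mef2c f/f CS, 10.7, 8.71 and 7.64 in Mef2c f/f SD, 16.1, 10.5 and 9.67 in Mef2c-cKO CS and 41.6, 44.6 and 32.6 in Mef2c-cKO SD. The Mef2c-cKO SD libraries lay above all others, with a response of 1.70 (adjusted p = 0.0116) against -0.20 in Mef2c f/f and an interaction of 1.90 (SE 0.32, adjusted p = 0.127). Wild-type mice had a Ptpn14 response of 0.85 (adjusted p = 0.000768). Fbxo8, an F-box protein, was at 31.2, 29.1, 37.5 and 24.1 in Mef2c f/f CS, 35.3, 31.2 and 39.8 in Mef2c f/f SD, 34.9, 34.2 and 37.1 in Mef2c-cKO CS and 96.0, 73.5 and 86.0 in Mef2c-cKO SD. Its Mef2c-cKO SD libraries again lay above all others, and the interaction was 1.02 (SE 0.20, adjusted p = 0.203), with a Mef2c-cKO response of 1.25 (adjusted p = 0.00367) and a Mef2c f/f response of 0.23. In wild-type mice Fbxo8 fell by 0.59 on the log2 scale (adjusted p = 0.00250).

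Wars2, the tryptophan-tRNA synthetase of mitochondria, was at 21.0, 20.2, 22.2 and 17.8 in Mef2c f/f CS, 18.9, 18.6 and 20.0 in Mef2c f/f SD, 18.5, 18.8 and 19.9 in Mef2c-cKO CS and 40.6, 33.1 and 30.0 in Mef2c-cKO SD. Only Mef2c-cKO SD stood out, with no overlap with the other 3 groups, and the interaction was 0.91 (SE 0.15, adjusted p = 0.127). Wbscr22, a methyltransferase of ribosomal RNA, was at 16.8, 18.3, 16.6 and 17.9 in Mef2c f/f CS, 18.5, 18.1 and 16.6 in Mef2c f/f SD, 18.7, 18.6 and 18.3 in Mef2c-cKO CS and 28.2, 27.5 and 33.9 in Mef2c-cKO SD. The same group was above the rest in every library, with an interaction of 0.64 (SE 0.13, adjusted p = 0.203). The Mef2c-cKO response passed for both, at 0.83 (adjusted p = 0.00989) for Wars2 and 0.67 (adjusted p = 0.0116) for Wbscr22, while the Mef2c f/f responses were -0.08 and 0.03.

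**Figure D2:**
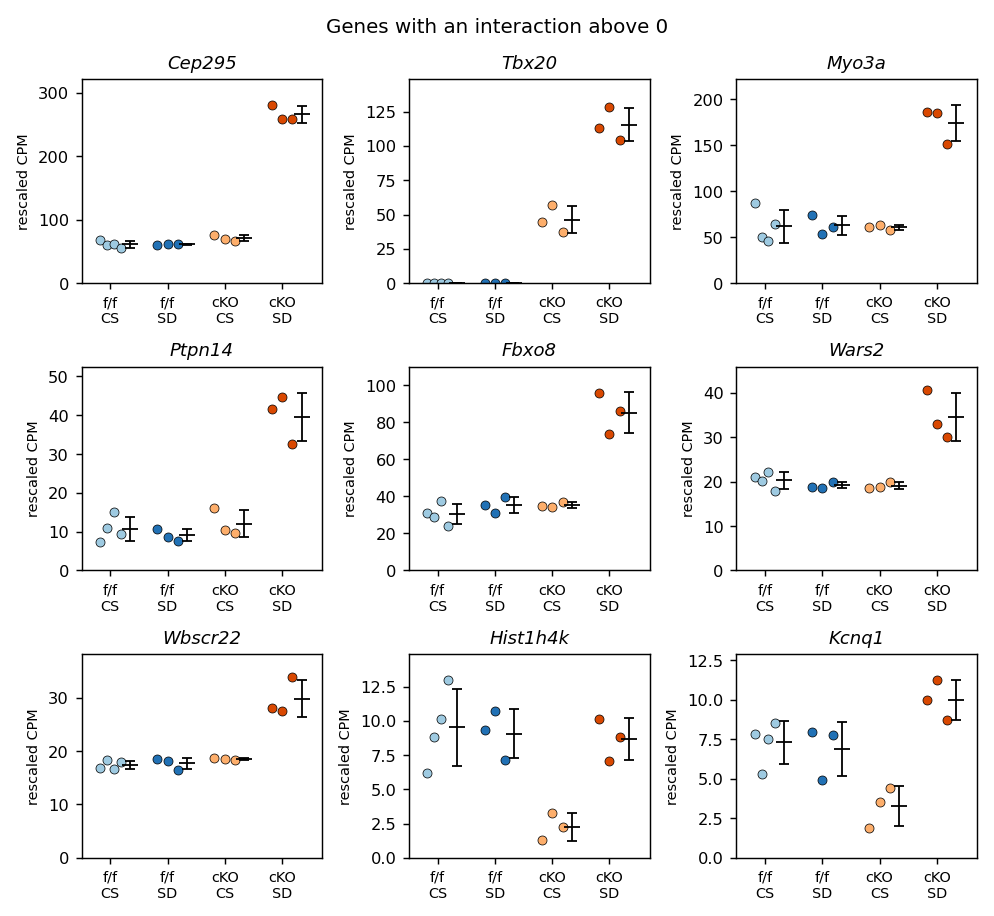
Rescaled CPM of 9 genes with an interaction above 0 in each of the 13 libraries, by genotype (f/f, Mef2c f/f; cKO, Mef2c-cKO) and sleep condition, with the group mean and SD beside the points. In Cep295, Myo3a, Ptpn14, Fbxo8, Wars2 and Wbscr22 the 3 Mef2c-cKO SD libraries lie above all others, in Tbx20 both Mef2c-cKO groups lie above Mef2c f/f libraries near 0, and in Hist1h4k and Kcnq1 the Mef2c-cKO CS libraries are the lowest.

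In other genes of this set Mef2c-cKO CS was the low group. Hist1h4k, one of many near-identical histone H4 genes whose reads cannot be assigned with certainty, was at 1.27, 3.26 and 2.22 in Mef2c-cKO CS and at 10.1, 7.09 and 8.81 in Mef2c-cKO SD. The 7 Mef2c f/f libraries ranged from 6.19 to 12.95, above every Mef2c-cKO CS library, and the interaction was 1.83 (SE 0.38, adjusted p = 0.253). Kcnq1, a voltage-gated potassium channel best known from heart and inner ear, was at 1.90, 3.52 and 4.43 in Mef2c-cKO CS, 9.99, 11.3 and 8.74 in Mef2c-cKO SD and 5.33 to 8.50 and 4.94 to 7.94 in Mef2c f/f CS and SD. For Kcnq1 the interaction was 1.62 (SE 0.35, adjusted p = 0.271). Eps8l3, an adaptor of the EPS8 family, was at 0.0253, 0.0472 and 0 in Mef2c-cKO CS, which is under the level of 3 reads, and at 1.38, 0.982 and 1.07 in Mef2c-cKO SD. The 7 Mef2c f/f libraries ranged from 0.225 to 1.64, around the Mef2c-cKO SD values and above every Mef2c-cKO CS value. Its fitted interaction of 2.10 (SE 0.44, adjusted p = 0.253) depends on the pseudocount and ranged over 1.40 to 6.44 among 29 alternatives.

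The RNA-binding protein gene Hnrnph3 was at 48.3 to 54.2 in Mef2c f/f CS, 43.3 to 46.9 in Mef2c f/f SD, 34.4 to 37.4 in Mef2c-cKO CS and 41.2 to 47.9 in Mef2c-cKO SD. The genotypes overlapped in SD and not in CS, and the interaction was 0.56 (SE 0.11, adjusted p = 0.203). Dus2, a tRNA dihydrouridine synthase, had responses of 0.29 in Mef2c-cKO and -0.28 in Mef2c f/f, with an interaction of 0.58 (SE 0.13, adjusted p = 0.325). Usp50, a ubiquitin-specific protease family member, was at 0.927 to 1.501 in Mef2c f/f CS, 0.700 to 1.09 in Mef2c f/f SD, 0.481 to 0.763 in Mef2c-cKO CS and 1.81 to 2.12 in Mef2c-cKO SD, with an interaction of 1.51 (SE 0.27, adjusted p = 0.151). Aim1 was at 0.792 to 1.85 in Mef2c f/f CS, 0.407 to 1.09 in Mef2c f/f SD, 2.41 to 3.39 in Mef2c-cKO CS and 6.00 to 6.62 in Mef2c-cKO SD and its interaction was 1.56 (SE 0.32, adjusted p = 0.248). Both Usp50 and Aim1 were near 1 CPM in the Mef2c f/f libraries, where the pseudocount of 0.5 compresses folds.

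For Pcsk7, a proprotein convertase, the response was in the Mef2c f/f mice. It was at 28.5, 31.0, 30.6 and 31.6 in Mef2c f/f CS, 22.9, 22.1 and 20.7 in Mef2c f/f SD, 21.2, 22.0 and 20.2 in Mef2c-cKO CS and 20.9, 21.3 and 22.1 in Mef2c-cKO SD. All Mef2c f/f CS libraries were above the other 9, with a Mef2c f/f response of -0.46 (adjusted p = 0.0416), a Mef2c-cKO response of 0.02 and an interaction of 0.49 (SE 0.10, adjusted p = 0.253). Ass1, which makes argininosuccinate from citrulline, and Zfyve28, a regulator of growth factor receptor trafficking, are outside the naming rule and are given because each also fell in Mef2c f/f. Ass1 was at 14.7 to 16.5 in Mef2c f/f CS, 10.04 to 10.3 in Mef2c f/f SD, 17.2 to 20.5 in Mef2c-cKO CS and 17.3 to 20.7 in Mef2c-cKO SD, with responses of -0.58 in Mef2c f/f (adjusted p = 0.0416) and -0.01 in Mef2c-cKO. Zfyve28 was at 134 to 158 in Mef2c f/f CS, 87.8 to 92.8 in Mef2c f/f SD, 75.8 to 102 in Mef2c-cKO CS and 71.2 to 91.7 in Mef2c-cKO SD, with responses of -0.73 (adjusted p = 0.0416) and -0.07. In both genes the Mef2c f/f SD libraries were below the Mef2c f/f CS libraries, and the interactions did not pass, at 0.57 (adjusted p = 0.325) and 0.66 (adjusted p = 0.366). Wild-type responses of Pcsk7, Ass1 and Zfyve28 were 0.26, 0.26 and -0.30 (limma, adjusted p = 0.0744, 0.116 and 0.163). Shc4, a signalling adaptor and the ninth gene that rose in Mef2c-cKO, is also outside the rule, with a response of 0.70 (adjusted p = 0.0371) and an interaction of 0.65 (adjusted p = 0.325). It lies within 1000000 bases of Usp50, whose interaction was also above 0.

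Among the 15 genes of smallest p with an interaction below 0, none passed the adjusted p by limma or edgeR (limma, 0.127 to 0.345), all 15 were called by DESeq2, and 520 of all genes tested had an unadjusted limma p of at most 0.05 in this direction. The Mef2c f/f response was above 0 in all 15 and the Mef2c-cKO response in 1. All 15 were tested in wild-type mice, where the response was above 0 in 9. In all 15 the Mef2c-cKO CS mean was above the Mef2c f/f CS mean, as in 7025 of the 12860 genes tested. The 4 Mef2c f/f CS libraries were below the other 9 in 7 of the 15, a separation that 296 of all genes tested showed (2.3%). An interaction below 0 favours both patterns, so these counts are a description.

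Cldn11 and Mog led this direction. Cldn11 encodes the claudin of the tight junctions between myelin layers and Mog a glycoprotein on the outer face of myelin. Cldn11 was at 74.1, 62.3, 61.5 and 68.0 in Mef2c f/f CS, 102, 98.1 and 109 in Mef2c f/f SD, 115, 114 and 142 in Mef2c-cKO CS and 114, 92.5 and 101 in Mef2c-cKO SD. All Mef2c f/f CS libraries were below the other 9 and the Mef2c-cKO CS libraries were the highest. The response was 0.63 in Mef2c f/f (adjusted p = 0.0512) and -0.27 in Mef2c-cKO, with an interaction of -0.90 (SE 0.15, 95% interval -1.22 to -0.59, adjusted p = 0.127). In wild-type mice Cldn11 rose by 0.61 (adjusted p = 0.00454), while the wild-type response of Mog was 0.05 (adjusted p = 0.689). Mog was at 35.8, 27.9, 32.7 and 34.6 in Mef2c f/f CS, 44.5, 48.3 and 50.9 in Mef2c f/f SD, 46.7, 47.5 and 42.8 in Mef2c-cKO CS and 37.0, 29.8 and 40.8 in Mef2c-cKO SD. All Mef2c f/f SD and Mef2c-cKO CS libraries were above all Mef2c f/f CS and Mef2c-cKO SD libraries, and the interaction was -0.90 (SE 0.16, adjusted p = 0.160), from responses of 0.55 in Mef2c f/f and -0.35 in Mef2c-cKO. The 250 bases before their starts lie at chr3:31149670-31149919 on the plus strand and chr17:37023399-37023648 on the minus strand (GRCm38.p6), and neither held the MEF2 consensus, the E-box or the core site.
Cldn11: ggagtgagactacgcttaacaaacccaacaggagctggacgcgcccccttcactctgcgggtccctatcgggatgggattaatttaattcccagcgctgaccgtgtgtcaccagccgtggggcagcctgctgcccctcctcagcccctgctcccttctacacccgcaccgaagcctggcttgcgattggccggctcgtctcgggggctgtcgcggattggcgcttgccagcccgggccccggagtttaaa
Mog: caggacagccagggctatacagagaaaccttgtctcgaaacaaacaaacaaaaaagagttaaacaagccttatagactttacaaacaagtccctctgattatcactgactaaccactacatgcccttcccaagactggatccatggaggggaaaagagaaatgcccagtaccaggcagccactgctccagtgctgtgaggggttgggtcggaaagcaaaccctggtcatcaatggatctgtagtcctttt

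Further genes of the oligodendrocyte, the cell that makes myelin, also had interactions below 0. Ugt8a, which makes the myelin lipid galactosylceramide, was at 58.9, 49.0, 59.5 and 54.2 in Mef2c f/f CS, 75.9, 72.8 and 91.8 in Mef2c f/f SD, 80.1, 85.3 and 81.2 in Mef2c-cKO CS and 78.2, 68.1 and 65.4 in Mef2c-cKO SD. Again the Mef2c f/f CS libraries were the lowest, and the interaction was -0.75 (SE 0.14, adjusted p = 0.202). Bcas1, a marker of myelinating oligodendrocytes, was at 82.3 to 89.0 in Mef2c f/f CS, 94.1 to 103 in Mef2c f/f SD, 80.1 to 95.01 in Mef2c-cKO CS and 73.7 to 80.7 in Mef2c-cKO SD, with every Mef2c f/f SD library above every Mef2c f/f CS library and an interaction of -0.44 (SE 0.11, adjusted p = 0.345). Mal, a proteolipid of compact myelin, was at 139.9, 99.8, 94.96 and 99.4 in Mef2c f/f CS, 165, 160.1 and 170.4 in Mef2c f/f SD, 166, 159 and 175 in Mef2c-cKO CS and 170.0, 125 and 165 in Mef2c-cKO SD. Mef2c f/f CS library 1 was apart from the other 3 of its group, and the Mef2c-cKO SD library at 125 was below all other libraries outside Mef2c f/f CS. The Mal interaction was -0.75 (SE 0.19, unadjusted p = 0.00169). Unlike in Mef2c f/f, Ugt8a fell in wild-type mice, by 0.37 (limma, adjusted p = 0.0182). Wild-type responses of Bcas1 and Mal were -0.25 and -0.36 (limma, adjusted p = 0.137 and 0.154).

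Of 19 oligodendrocyte lineage markers, all tested, 8 had an unadjusted p of at most 0.05 and an interaction below 0 (42.1%, against 4.04% of all genes) and 0 above. The median interaction was -0.32, from median responses of 0.31 in Mef2c f/f and -0.10 in Mef2c-cKO, and 16 of 19 were below 0. None passed the adjusted p by limma or edgeR, and DESeq2 called 3. Named here after their values were seen, Cnp, an enzyme of myelin, had an interaction of -0.48 (SE 0.16, unadjusted p = 0.0119) and the myelin basic protein gene Mbp -0.25 (SE 0.23, unadjusted p = 0.289). The summed level of the 19 was 2219.8 to 2601 in Mef2c f/f CS, 2983 to 3383 in Mef2c f/f SD, 2871 to 3509 in Mef2c-cKO CS and 2792 to 3407 in Mef2c-cKO SD. In 7 of the 19 the Mef2c f/f CS libraries were below all others, against 2.3% of all genes. The median stayed below 0 under all 7 other scalings and corrections and when any 1 of the 13 libraries was left out (-0.44 to -0.29). Without Mef2c-cKO CS library 8 and Mef2c-cKO SD library 6 the median was -0.39 and 10 of 19 had a p of at most 0.05 below 0, against 5.35% of all genes in that fit. The part of the amount of oligodendrocyte RNA in each sample in these values was not tested.

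**Figure D3:**
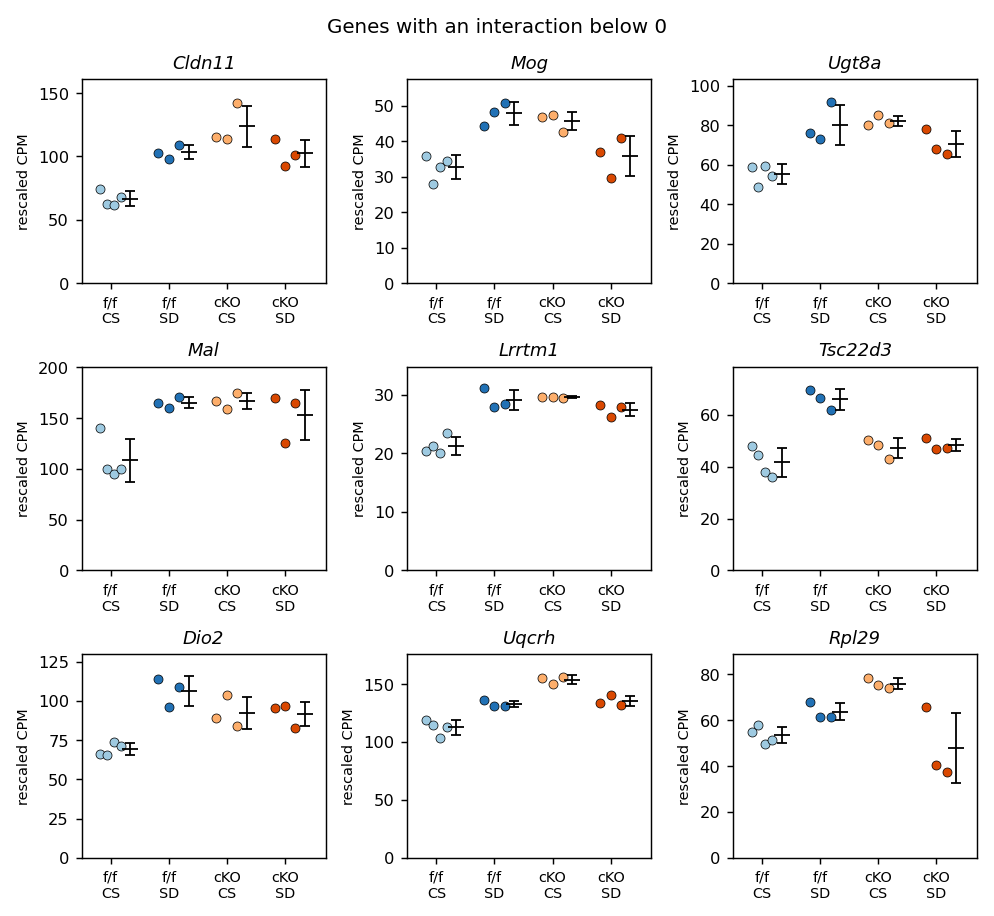
Rescaled CPM of 9 genes with an interaction below 0 in each of the 13 libraries, by genotype (f/f, Mef2c f/f; cKO, Mef2c-cKO) and sleep condition, with the group mean and SD beside the points. The Mef2c f/f CS libraries are the lowest group mean in 8 of the 9 panels, all but Rpl29, where the Mef2c-cKO SD mean is lower.

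Outside myelin, several genes of this direction have known roles at synapses, in hormone action and in energy metabolism. Lrrtm1, a postsynaptic adhesion protein that binds neurexins, was at 20.4, 21.3, 20.0 and 23.5 in Mef2c f/f CS, 31.1, 27.9 and 28.4 in Mef2c f/f SD, 29.6, 29.7 and 29.4 in Mef2c-cKO CS and 28.3, 26.2 and 27.9 in Mef2c-cKO SD. The Mef2c f/f CS libraries were below the other 9, which lay within 26.2 to 31.1, and the interaction was -0.55 (SE 0.11, adjusted p = 0.217). In wild-type mice Lrrtm1 rose by 0.51 (adjusted p = 0.0114). Dio2, the deiodinase that activates thyroid hormone in glia, was at 66.3, 65.4, 73.9 and 71.5 in Mef2c f/f CS, 114, 95.9 and 109 in Mef2c f/f SD, 89.4, 103 and 84.1 in Mef2c-cKO CS and 95.7, 96.7 and 82.7 in Mef2c-cKO SD. All Mef2c f/f CS libraries were below the other 9. Dio2 rose in Mef2c f/f (log2 0.61, adjusted p = 0.0416), its Mef2c-cKO response was -0.01, and the interaction was -0.62 (SE 0.13, adjusted p = 0.275). Its wild-type response was -0.11 (adjusted p = 0.575). Tsc22d3, the glucocorticoid-induced leucine zipper protein, was at 47.8, 44.6, 38.1 and 36.0 in Mef2c f/f CS, 69.6, 66.4 and 61.9 in Mef2c f/f SD, 50.4, 48.4 and 43.0 in Mef2c-cKO CS and 51.1, 46.8 and 47.2 in Mef2c-cKO SD. The Mef2c f/f SD libraries were above all others. It rose by 0.66 in Mef2c f/f (adjusted p = 0.0416), its response was 0.04 in Mef2c-cKO, and the interaction was -0.63 (SE 0.14, adjusted p = 0.325). In wild-type mice it rose by 0.48 (adjusted p = 0.00242).

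Uqcrh, a subunit of respiratory complex III, was at 119, 115, 104 and 112 in Mef2c f/f CS, 136, 131 and 131 in Mef2c f/f SD, 155, 149.7 and 156 in Mef2c-cKO CS and 134, 140.3 and 132 in Mef2c-cKO SD. Mef2c f/f CS was the lowest group and Mef2c-cKO CS the highest, with both SD groups between them, and the interaction was -0.42 (SE 0.09, adjusted p = 0.271). Ndufs5, a subunit of complex I, was at 37.2 to 47.3 in Mef2c f/f CS, 50.3 to 53.1 in Mef2c f/f SD, 60.8 to 70.2 in Mef2c-cKO CS and 55.4 to 59.8 in Mef2c-cKO SD. Again Mef2c f/f CS was lowest and Mef2c-cKO CS highest, with an interaction of -0.53 (SE 0.13, adjusted p = 0.325). Hcfc1r1, which encodes a protein that binds the cofactor HCFC1, was at 26.3 to 28.2 in Mef2c f/f CS, 29.8 to 31.7 in Mef2c f/f SD, 39.4 to 43.0 in Mef2c-cKO CS and 33.9 to 34.7 in Mef2c-cKO SD, with no overlap between Mef2c-cKO CS and Mef2c-cKO SD and an interaction of -0.47 (SE 0.09, adjusted p = 0.205).

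Rpl29, a protein of the large ribosomal subunit with many processed copies in the genome, was at 54.9, 58.0, 49.7 and 51.6 in Mef2c f/f CS, 67.9, 61.5 and 61.5 in Mef2c f/f SD, 78.6, 75.3 and 73.9 in Mef2c-cKO CS and 65.7, 40.4 and 37.6 in Mef2c-cKO SD. Mef2c-cKO SD libraries 6 and 7 were the 2 lowest of the 13, library 5 was not, and the interaction was -0.95 (SE 0.21, adjusted p = 0.325). Ppm1m, a protein phosphatase that lies within 1000000 bases of Rpl29, was at 6.86 to 8.27 in Mef2c f/f CS, 7.86 to 8.77 in Mef2c f/f SD, 8.76 to 10.9 in Mef2c-cKO CS and 5.09 to 7.45 in Mef2c-cKO SD and had an interaction of -0.81 (SE 0.19, adjusted p = 0.325). The myosin light chain gene Myl12b, whose near-identical copy Myl12a may share its reads, had responses of 0.21 in Mef2c f/f and -0.21 in Mef2c-cKO and an interaction of -0.42 (adjusted p = 0.325). Cxx1b, which likewise has a near-identical neighbour, Cxx1a, had an interaction of -0.61 (SE 0.14, adjusted p = 0.325). Cd6, a receptor of T cells, was at 1.23 to 2.52 in Mef2c f/f CS, 3.28 to 3.50 in Mef2c f/f SD, 1.82 to 2.93 in Mef2c-cKO CS and 1.12 to 1.597 in Mef2c-cKO SD, a low level at which the Mef2c f/f SD libraries were the highest, and its interaction was -1.45 (SE 0.29, adjusted p = 0.217).

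Functional groups were then read as 40 lists of genes. The lists and their members, the oligodendrocyte list above included, were chosen with earlier results of these data known. Their shares beside those of all genes are therefore a description. For each list the number of members with an unadjusted p of at most 0.05 is given, beside the 3.77% above 0 and 4.04% below 0 of all genes, with its median beside the median of all genes, -0.0022. None of the members named below passed the adjusted p by limma or edgeR, while DESeq2 called Uqcrh, Ndufs5, Rpl29, Rps27a, Mrps27, Lrrtm1, Tsc22d3, Aldh1a2, Hist1h4k and Flt1 among them. Member counts without Mef2c-cKO CS library 8 and Mef2c-cKO SD library 6, called the 2 libraries below, stand beside 6.03% above 0 and 5.35% below 0 of all genes in that fit.

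**Figure D4:**
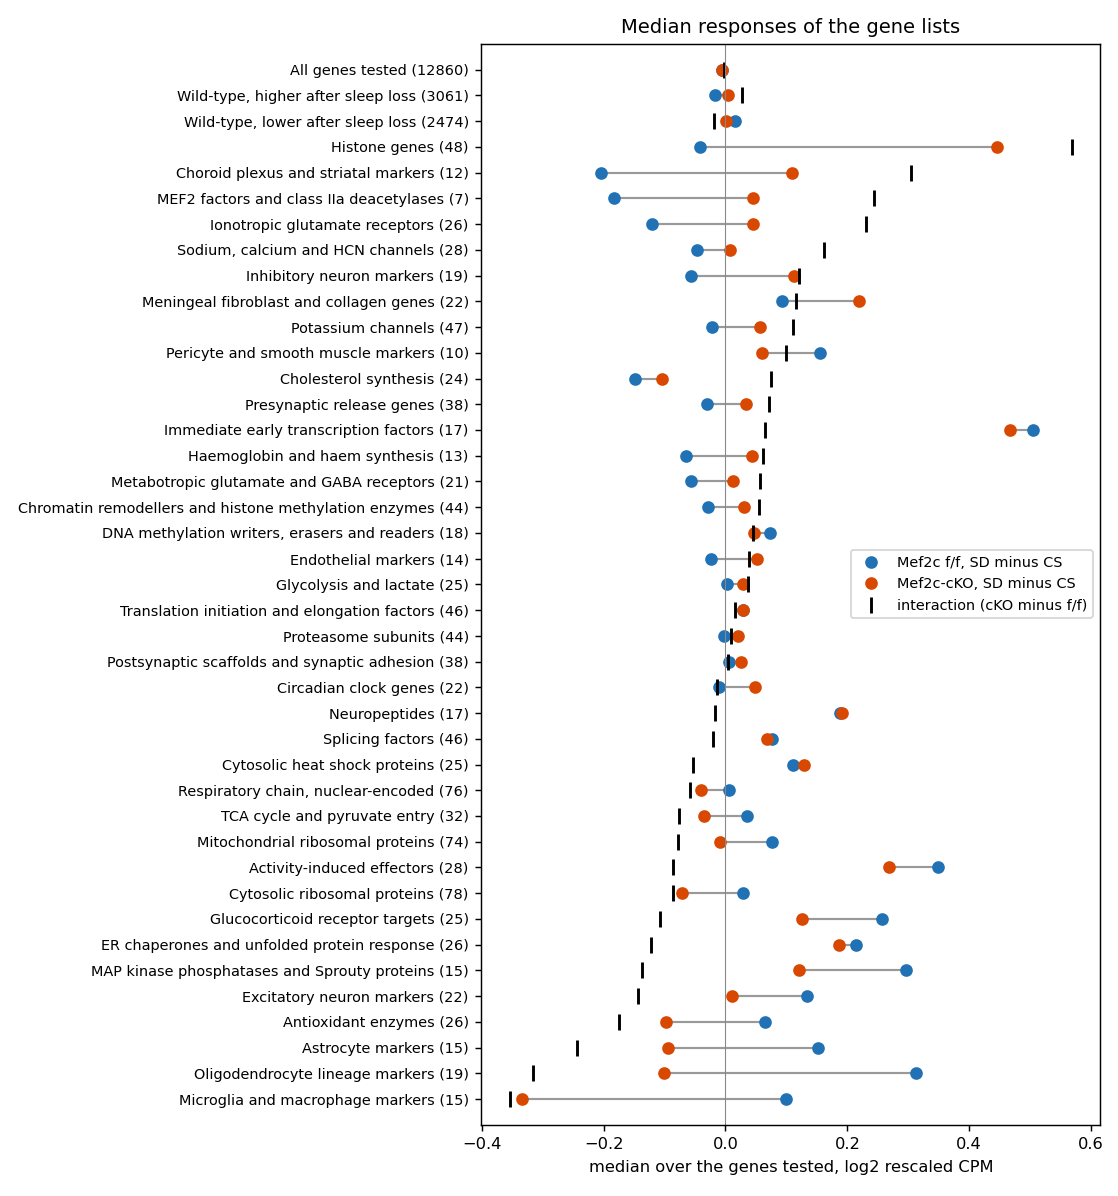
Median SD minus CS difference of each gene list in Mef2c f/f (blue) and Mef2c-cKO (orange) and the median interaction (black bar), in log2 rescaled CPM, with the number of genes tested in brackets. Oligodendrocyte lineage and microglia markers have the lowest median interactions, -0.32 and -0.35, and histone genes the highest at 0.57, while immediate early transcription factors have median responses of 0.50 and 0.47 in the 2 genotypes; the microglia median is above 0 without 1 library and the immediate early median falls below 0 after a correction for GC content.

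Genes of protein synthesis and energy metabolism leaned the same way as Uqcrh and Rpl29. Of 78 cytosolic ribosomal protein genes 14 had a p of at most 0.05 below 0 (17.9%) and 2 above, with a median of -0.09. Rps27a, which encodes a ribosomal protein fused to ubiquitin, was at 99.998 to 134 in Mef2c f/f CS, 135 to 158 in Mef2c f/f SD, 132 to 149 in Mef2c-cKO CS and 104 to 123.4 in Mef2c-cKO SD, with an interaction of -0.63 (SE 0.16, unadjusted p = 0.00131). Rpl27a was at -0.40 (SE 0.12, unadjusted p = 0.00532) and Rpl22 at -0.30 (SE 0.10, unadjusted p = 0.0105). Of 74 mitochondrial ribosomal protein genes 11 were below 0 at that p (14.9%) and 1 above, with a median of -0.08. Mrpl40 was at -0.46 (SE 0.12, unadjusted p = 0.00258) and Mrps16 at -0.42 (SE 0.13, unadjusted p = 0.00585), while Mrps27 was the 1 above 0, at 0.44 (SE 0.11, unadjusted p = 0.00172). Of 76 nuclear-encoded respiratory chain genes 13 were below 0 (17.1%) and 0 above, with a median of -0.06, led by Uqcrh and Ndufs5 and followed by Ndufb11 at -0.33 (SE 0.10, unadjusted p = 0.00506) and Ndufa1 at -0.41 (SE 0.12, unadjusted p = 0.00598). For these 3 lists the median stayed below 0 under all 7 other scalings and corrections and in each fit that left out 1 library. Without Mef2c-cKO CS library 8 and Mef2c-cKO SD library 6 the counts below 0 were 19, 13 and 13.

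Of 32 genes of the TCA cycle and pyruvate entry 5 were below 0 at a p of at most 0.05 and 0 above. Without the 2 libraries 3 were below 0 at that p and 0 above. Sdhd, a subunit of succinate dehydrogenase, had an interaction of -0.31 (SE 0.10, unadjusted p = 0.00861) and Mpc2, of the mitochondrial pyruvate carrier, -0.27 (SE 0.11, unadjusted p = 0.0249). Pdk1, a kinase that inhibits pyruvate dehydrogenase, was at -0.47 (SE 0.19, unadjusted p = 0.0271). Of 26 antioxidant enzyme genes 4 were below 0 at that p and 0 above, with a median of -0.18. Peroxiredoxin 2 (Prdx2) was at -0.32 (SE 0.11, unadjusted p = 0.0150) and catalase (Cat) at -0.32 (SE 0.14, unadjusted p = 0.0356). Prdx6 was at 315 in Mef2c-cKO CS library 8 against 108 and 110.4 in the other 2, and its interaction was -0.87 (SE 0.40, unadjusted p = 0.0486). Without both libraries named above, 3 antioxidant genes were below 0 and the median was -0.08. Glycolysis, proteasome and translation factor genes had medians of 0.04, 0.0091 and 0.02, with 1, 1 and 2 members at a p of at most 0.05, and the sign of each median changed under at least 1 scaling.

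Glial lists other than the oligodendrocyte list were marked by Mef2c-cKO CS library 8. Of 15 astrocyte markers 14 had an interaction below 0, and 2 had a p of at most 0.05, with a median of -0.24. The gap junction gene Gja1 was at 104, 90.0, 86.9 and 86.5 in Mef2c f/f CS, 109, 107 and 121 in Mef2c f/f SD, 129.8, 122.8 and 228 in Mef2c-cKO CS and 146, 91.4 and 136 in Mef2c-cKO SD, with an interaction of -0.62 (SE 0.29, unadjusted p = 0.0476). Library 8 of Mef2c-cKO CS was far above all others for Gja1, and the median over the list was -0.09 without it. S100b, a calcium-binding protein of astrocytes, had no such library and was at -0.24 (SE 0.11, unadjusted p = 0.0411). Without the 2 libraries 0 of the 15 astrocyte markers, S100b included, had a p of at most 0.05. Of 15 microglia and macrophage markers 1, the purinergic receptor gene P2ry12, was below 0 at that p, at -0.46 (SE 0.17, unadjusted p = 0.0171). The complement gene C1qa was at 11.4, 10.7, 10.5 and 7.83 in Mef2c f/f CS, 15.4, 13.3 and 14.5 in Mef2c f/f SD, 16.6, 23.4 and 90.2 in Mef2c-cKO CS and 19.6, 26.5 and 19.6 in Mef2c-cKO SD. Mef2c-cKO CS library 8 was again the highest, and without it the microglia median of -0.35 became 0.18. The summed microglia level was 208 to 246 in Mef2c f/f CS, 229 to 239.6 in Mef2c f/f SD, 254 to 801 in Mef2c-cKO CS and 296 to 329.6 in Mef2c-cKO SD.

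**Figure D5:**
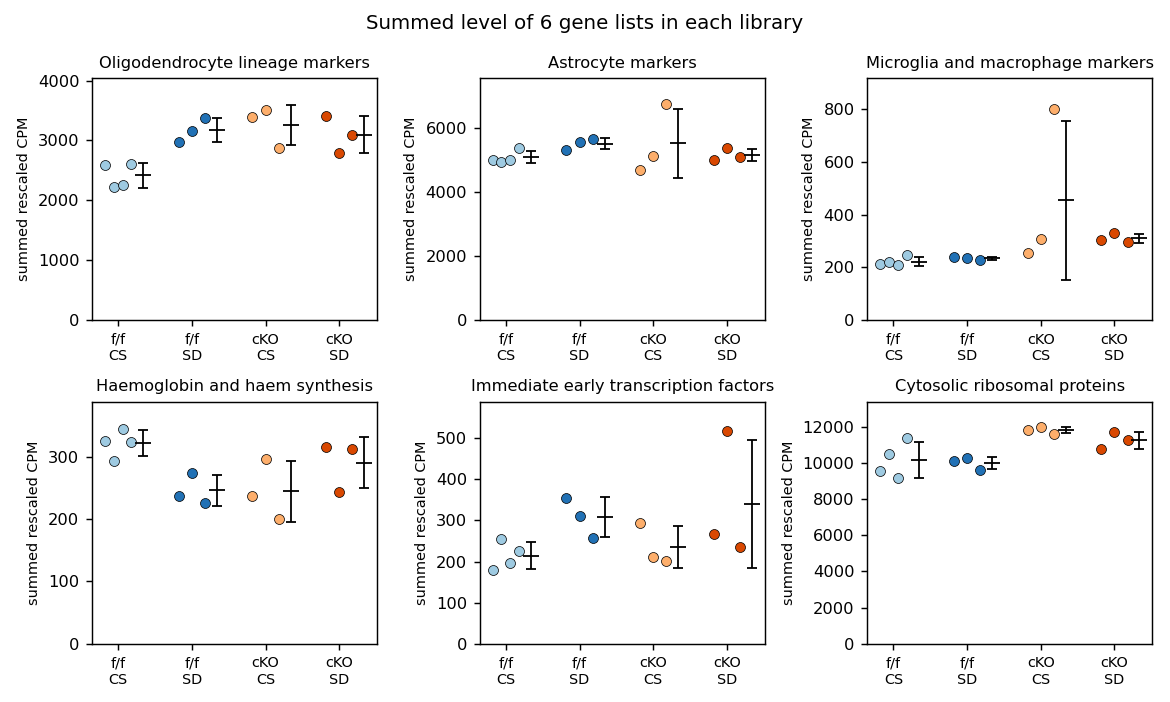
Summed rescaled CPM of 6 gene lists in each of the 13 libraries, by genotype and sleep condition, with the group mean and SD beside the points. The 4 Mef2c f/f CS libraries are below the other 9 for oligodendrocyte markers, 1 Mef2c-cKO CS library is at 801 for microglia markers, and 1 Mef2c-cKO SD library is at 518 for immediate early transcription factors.

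Immediate early transcription factors, induced within minutes of neuronal activity, had responses of the same direction in both genotypes. The response was above 0 in 16 of 17 genes in Mef2c f/f and in 16 of 17 in Mef2c-cKO, with medians of 0.50 and 0.47. None of the 17 had an interaction at an unadjusted limma p of at most 0.05, and none was called by edgeR or DESeq2. Fos, outside the naming rule, was at 2.40, 6.29, 3.56 and 3.74 in Mef2c f/f CS, 14.9, 8.66 and 7.66 in Mef2c f/f SD, 11.1, 4.48 and 5.93 in Mef2c-cKO CS and 8.28, 45.0 and 4.98 in Mef2c-cKO SD. The library at 45.0 was the highest of all, the other 2 Mef2c-cKO SD libraries overlapped Mef2c-cKO CS, and the interaction was -0.44 with a 95% interval of -2.23 to 1.36. Fosl2 was at 0.49 (SE 0.34, unadjusted p = 0.172) and Npas4 at 0.69 (SE 0.48, unadjusted p = 0.179). The median interaction of the list was 0.06, but it fell below 0 after the correction for GC content and length (-0.02) and when Mef2c-cKO SD library 6 was left out (-0.29). Without that library and Mef2c-cKO CS library 8 it was -0.38, with 2 of 17 at a p of at most 0.05, both below 0.

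Activity-induced effectors, genes that act at synapses or in secretion after activity, gave a like picture. Of 28, 27 had a Mef2c f/f response above 0 and 26 a Mef2c-cKO response above 0, with medians of 0.35 and 0.27. None had an interaction at an unadjusted limma p of at most 0.05, and none was called by edgeR or DESeq2. Homer1, a scaffold of metabotropic glutamate receptors, was at 362, 327, 299 and 293 in Mef2c f/f CS, 728, 592 and 484 in Mef2c f/f SD, 407, 287 and 295 in Mef2c-cKO CS and 436, 659.8 and 319 in Mef2c-cKO SD, with an interaction of -0.42 (SE 0.31, unadjusted p = 0.195). The 3 Mef2c f/f SD libraries were above all Mef2c f/f CS libraries, while Mef2c-cKO SD and CS overlapped. Arc, a regulator of AMPA receptor endocytosis named outside the rule, had responses of 1.27 in Mef2c f/f and 0.77 in Mef2c-cKO and an interaction with a 95% interval of -1.92 to 0.91. Without the 2 libraries the list median was -0.33 in place of -0.09, and 7 of 28 were below 0 at a p of at most 0.05. Of 15 MAP kinase phosphatase and Sprouty genes, which restrain growth factor signalling, Spred1 was the 1 at that p. It was at 204 to 257 in Mef2c f/f CS, 307 to 343 in Mef2c f/f SD, 200.3 to 265 in Mef2c-cKO CS and 192 to 247 in Mef2c-cKO SD, with an interaction of -0.54 (SE 0.17, unadjusted p = 0.00609). Without the 2 libraries 4 of 15 were below 0 at that p.

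In the blood and meningeal lists the members at a p of at most 0.05 were all above 0. Of 13 haemoglobin and haem synthesis genes 5 had a p of at most 0.05, all above 0 (38.5%, against 3.77% of all genes). Of these, 4 are globin chains, whose near-identical copies may share reads, and the other is Alas2, the haem synthesis enzyme of red cells. Hbb-bt was at 22.4, 15.1, 17.2 and 16.6 in Mef2c f/f CS, 9.09, 10.99 and 5.80 in Mef2c f/f SD, 5.49, 7.55 and 1.03 in Mef2c-cKO CS and 11.3, 6.72 and 12.7 in Mef2c-cKO SD. Mef2c f/f CS was the highest group, the Mef2c-cKO CS library at 1.03 was the lowest of all, and the interaction was 2.34 (SE 0.64, unadjusted p = 0.00297). Hba-a1 and Hba-a2 were at 2.38 (SE 0.80, unadjusted p = 0.0108) and 2.29 (SE 0.76, unadjusted p = 0.00947), and Alas2 at 1.79 (SE 0.49, unadjusted p = 0.00292). Hbb-bs, named after its values were seen, was at 2.349 (SE 0.83, unadjusted p = 0.0141). Hbb-bt, Hba-a1, Hba-a2 and Alas2 rose after sleep loss in wild-type mice, by 1.59, 2.12, 1.88 and 0.97. Their responses were above 0 in Mef2c-cKO and below 0 in Mef2c f/f. Over the whole list 7 genes were above 0 and 6 below. The summed level of the 13 was 294 to 345 in Mef2c f/f CS, 226 to 275 in Mef2c f/f SD, 201 to 296 in Mef2c-cKO CS and 244 to 316 in Mef2c-cKO SD, and their median of 0.06 fell below 0 when other minimum CPM values were used. Of 22 meningeal fibroblast and collagen genes 4 were above 0 at that p. Aldh1a2, a retinoic acid synthesis enzyme of the meninges, was at 5.69, 5.44, 6.51 and 5.68 in Mef2c f/f CS, 5.14, 3.64 and 3.98 in Mef2c f/f SD, 5.65, 4.67 and 3.94 in Mef2c-cKO CS and 10.1, 19.2 and 6.11 in Mef2c-cKO SD. The Mef2c-cKO SD libraries were spread widely, with library 6 the highest, and the interaction was 1.52 (SE 0.40, unadjusted p = 0.00203). Slc6a13 was at 0.85 (SE 0.29, unadjusted p = 0.0110), Slc22a6 at 1.05 (SE 0.40, unadjusted p = 0.0199) and Col6a1 at 0.41 (SE 0.18, unadjusted p = 0.0373). Aldh1a2, Slc6a13 and Slc22a6 rose in wild-type mice by 1.52, 1.44 and 1.74, and Col6a1 was at 0.19 there (limma, adjusted p = 0.377). The summed meningeal level was 579.9 to 702 in Mef2c f/f CS, 616 to 731 in Mef2c f/f SD, 554 to 713 in Mef2c-cKO CS and 727 to 960.5 in Mef2c-cKO SD. Blood left in the vessels and meninges kept on the tissue were not tested.

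Lists of genes of excitatory transmission differed in their median interactions. Of 26 ionotropic glutamate receptor genes 18 were above 0, with a median of 0.23 that kept its sign under all 7 scalings and in each fit without 1 library, and 1 reached a p of at most 0.05. This was the AMPA receptor subunit gene Gria1, at 579 to 883 in Mef2c f/f CS, 552 to 575 in Mef2c f/f SD, 588 to 712 in Mef2c-cKO CS and 708 to 775 in Mef2c-cKO SD, with an interaction of 0.49 (SE 0.18, unadjusted p = 0.0187). Without the 2 libraries 6 of 26 reached that p, all above 0. Of 38 postsynaptic scaffold and adhesion genes 4 were below 0 at that p and 0 above, and all 4 encode leucine-rich repeat adhesion proteins. Besides Lrrtm1 these were Lrrtm2 at -0.42 (SE 0.12, unadjusted p = 0.00482), Slitrk5 at -0.28 (SE 0.11, unadjusted p = 0.0242) and Slitrk1 at -0.28 (SE 0.12, unadjusted p = 0.0391). Unlike Lrrtm1, these had wild-type responses below 0. Lrrtm2 was at -0.49, Slitrk5 at -0.06 and Slitrk1 at -0.45 (limma, adjusted p = 0.0483, 0.638 and 0.00454). Without the 2 libraries 7 of the 38 were below 0 and 3 above. The median of that list was 0.0037, and its sign changed under 4 of 7 scalings and corrections. Of 38 presynaptic release genes 0 reached that p by limma, and 0 were called by DESeq2.

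Of 22 excitatory neuron markers 18 were below 0, with a median of -0.14, and 3 had a p of at most 0.05, all below 0. Nrgn, a postsynaptic calmodulin-binding protein of pyramidal neurons, was at 418, 445, 389 and 442 in Mef2c f/f CS, 582, 596 and 603 in Mef2c f/f SD, 285, 434 and 439 in Mef2c-cKO CS and 380.5, 367 and 378 in Mef2c-cKO SD. Its Mef2c f/f SD libraries were above all others, and the interaction was -0.50 (SE 0.18, unadjusted p = 0.0157). Pou3f1, a transcription factor of upper-layer and pyramidal tract neurons, was at 3.94 to 6.44 in Mef2c f/f CS, 8.77 to 9.997 in Mef2c f/f SD, 6.76 to 8.29 in Mef2c-cKO CS and 6.45 to 8.52 in Mef2c-cKO SD, with an interaction of -0.76 (SE 0.22, unadjusted p = 0.00397), and Rorb, of layer 4, was at -0.49 (SE 0.22, unadjusted p = 0.0473). Of 19 inhibitory neuron markers Reln was above 0 at 0.55 (SE 0.19, unadjusted p = 0.0105) and Pvalb below 0 at -0.60 (SE 0.26, unadjusted p = 0.0408).

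Of 7 MEF2 and class IIa deacetylase genes tested, 0 reached an unadjusted limma p of at most 0.05 and 0 were called by edgeR or DESeq2. Mef2a and Mef2d, the other MEF2 factors of cortex, had 95% intervals of -0.29 to 0.26 and -0.21 to 0.37, and the deacetylase genes Hdac4, Hdac5 and Hdac9 had interactions of 0.24, 0.29 and 0.54 (SE 0.16, 0.21 and 0.35). Hdac9 was at 536 in Mef2c f/f CS library 3, against 233 to 269.6 in the other 3 libraries of that group. Of 22 circadian clock genes 2 were below 0 at that p, Rorb and Dbp, an output factor of the clock. Without the 2 libraries 1 clock gene was below 0 at that p and 2 were above. Dbp was at 44.0, 46.4, 37.0 and 40.5 in Mef2c f/f CS, 40.3, 36.9 and 36.9 in Mef2c f/f SD, 46.0, 44.2 and 41.6 in Mef2c-cKO CS and 33.8, 23.3 and 28.9 in Mef2c-cKO SD. The Mef2c-cKO SD libraries were below all others, and the interaction was -0.49 (SE 0.17, unadjusted p = 0.0114). The core genes Clock, Arntl, Per2, Cry1 and Npas2 were at -0.09, 0.11, -0.08, 0.27 and 0.35, with unadjusted p from 0.0587 to 0.728.

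Of 25 glucocorticoid receptor targets 18 were below 0, with median responses of 0.26 in Mef2c f/f and 0.13 in Mef2c-cKO and a median interaction of -0.11. Tsc22d3 and Arrdc3, at -0.36 (SE 0.15, unadjusted p = 0.0306), had a p of at most 0.05. Of 48 histone genes 35 were above 0 and the median was 0.57, but 2 were above and 2 below at a p of at most 0.05, near the shares of all genes. Without the 2 libraries 12 were above and 2 below, and the median was 0.97. Hist2h4 was at 5.08 to 12.2 in Mef2c f/f CS, 5.38 to 6.89 in Mef2c f/f SD, 7.42 to 11.7 in Mef2c-cKO CS and 12.1 to 20.2 in Mef2c-cKO SD, with an interaction of 1.17 (SE 0.36, unadjusted p = 0.00619), and the linker histone gene Hist1h1b was at -0.997 (SE 0.36, unadjusted p = 0.0166). The histone median ranged from 0.21 to 0.84 when 1 library was left out, and most histone transcripts lack the poly(A) tail that the library kit selects. Of 26 ER chaperone and unfolded protein response genes 18 were below 0 and 2 reached that p, both above 0, Ddit3 at 0.36 (SE 0.16, unadjusted p = 0.0410) and Ero1lb at 0.39 (SE 0.17, unadjusted p = 0.0423). Without the 2 libraries 0 of the 26 reached it.

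Other lists were close to the shares of all genes. Of 47 potassium channel genes 33 were above 0, and Kcng2 was above 0 at 0.64 (SE 0.28, unadjusted p = 0.0389) and Kcna1, a channel of axons, below 0 at -0.27 (SE 0.12, unadjusted p = 0.0463). Of 28 sodium, calcium and HCN channel genes 2 reached a p of at most 0.05, both above 0, the T-type calcium channel gene Cacna1h at 0.51 (SE 0.23, unadjusted p = 0.0474) and the pacemaker channel gene Hcn4 at 0.57 (SE 0.26, unadjusted p = 0.0475). Among 46 splicing factor genes Hnrnpm was at 0.24 (SE 0.10, unadjusted p = 0.0394) and Celf4 at 0.36 (SE 0.16, unadjusted p = 0.0426), and among 14 endothelial markers the VEGF receptor gene Flt1 was at 0.51 (SE 0.12, unadjusted p = 0.00101). Of 18 genes of DNA methylation Gadd45a, a stress-induced gene of demethylation, was the 1 at that p, at -0.75 (SE 0.26, unadjusted p = 0.0120). By limma 0 of 44 chromatin remodeller and histone methylation genes, 0 of 25 cytosolic heat shock genes, 0 of 24 cholesterol synthesis genes, 0 of 17 neuropeptide genes and 0 of 10 pericyte markers reached it, and DESeq2 called 0 of them. Without the 2 libraries 5 chromatin genes, 4 above 0, and 5 cholesterol synthesis genes, 4 below 0, reached it, as did 2 heat shock genes, both below 0, and 1 neuropeptide gene below 0.

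The genes that responded in wild-type mice, from 13 libraries that the interaction does not use, had interactions centred near 0. Of 3061 tested genes that were higher after sleep loss in wild-type mice, 92 had a p of at most 0.05 above 0 (3.01%) and 128 below (4.18%), with a median of 0.03. Of 2474 that were lower, 71 were above 0 (2.87%) and 85 below (3.44%), with a median of -0.02. These shares were near those of all genes. Both medians changed sign after the correction for GC content and length. In the Mef2c f/f mice the medians of the same genes were -0.02 and 0.02, and in the Mef2c-cKO mice 0.0041 and 0.00071, all small against the thresholds that chose them in wild-type mice.

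Interactions were related to the GC content of transcripts. Over 12836 genes the Spearman correlation with GC content was 0.25 for the interaction, -0.02 for the Mef2c-cKO response and -0.31 for the Mef2c f/f response, across genes of the same libraries, which are not independent replicates. The correlation of a single library's deviation with GC content also varied within groups. It was -0.45 in Mef2c f/f CS library 1 and 0.44 in library 4 of that group. In Mef2c f/f SD libraries 1, 2 and 3 it was -0.28, -0.02 and -0.47. After a correction for GC content and length within each library, 5 genes had an interaction past the adjusted p.

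With wild-type mice in place of Mef2c f/f mice, 76 of 13415 genes had a difference of responses past the adjusted p (limma, 0.567%), 71 above 0. The count was 23 with edgeR and ranged from 5 to 521 when 1 library was left out. This comparison shares the 6 Mef2c-cKO libraries with the interaction, and wild-type libraries differed from them in level before any response, so the values are given side by side only. Of the 30 genes named by their interaction p, 7 passed in it. Cep295 was at 2.41 against wild-type and 1.91 against Mef2c f/f, Fbxo8 at 1.84 and 1.02, Wars2 at 1.104 and 0.91, Myo3a at 1.40 and 1.45, and Kcnq1 at 1.49 and 1.62, and Tbx20 and Eps8l3, at 1.30 and 1.57 against wild-type, also passed. The wild-type means of the last pair were at most 0.0109 and 0.0610 rescaled CPM, so their values restate the Mef2c-cKO response on the log2(CPM + 0.5) scale. Cldn11 was at -0.88 and -0.90 and did not pass there (adjusted p = 0.0593). Other myelin genes did not pass there either. Mog was at -0.40 against wild-type and -0.90 against Mef2c f/f. Ugt8a was at 0.15 and -0.75, Bcas1 at 0.05 and -0.44, and Mal at 0.23 and -0.75.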

How the data were processed

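RNA-seq of frontal cortex was used from 13 of 33 samples. Per the study's methods, the authors prepared stranded poly(A) libraries, trimmed reads, aligned them to mm10 and counted uniquely mapped reads per gene, and they deposited CPM, counts scaled to a fixed library total. Every one of 711645 values came back as a whole read within 0.01. CPM were divided by a median-of-ratios factor over 33 libraries (11570 genes) and tested as log2(CPM + 0.5) with limma 3.58.1 (R 4.3.3, trended prior, 4-group fit, Benjamini-Hochberg), so folds of low genes are understated. All p-values without another name are limma's. edgeR 4.0.16 and DESeq2 1.42.0 were run on recovered reads. Scripts were tested on simulated data. The 30 named genes are the 15 of smallest p per direction, with up to 4 per list added. Members and lists were chosen with earlier results of these data known. Replicates are separate samples per the labels, every p measures the spread between them, and replicate pairs had Spearman correlations of 0.974 to 0.997. The study's recovery-sleep samples were used only for the library factors and the fit over all 33 libraries. Results for some genes are not reported here.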

Additional observations from a re-analysis of the deposited data

Results flagged for a closer look

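Cep295 differed between the genotypes by the test of the difference itself, with an interaction of 1.91. In 7 other genes that the text names or lists, 1 of the 4 Mef2c f/f CS libraries lay far from the other 3, its gap to the nearest being a share of the range above Dixon's critical value. Chance gives about 1 such group in 20, and 110 genes were examined. Library 1 was apart in rescaled CPM for Bcas1 (89.0), Mal (139.9), Mrps27 (34.4) and Zfyve28 (134). Library 3 was apart for Gpr37l1 (69.0) and Hdac9 (536), and library 4 for Spry4 (7.32).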

How the results depend on the processing

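Cep295 passed under each of its 31 alternatives. The count of genes with an interaction past the adjusted p, 1 in the report, was 315 with array quality weights, 59 with DESeq2, 8 in a fit over all 33 libraries, 5 after the correction for GC content and length and 2 without Mef2c-cKO CS library 8 and Mef2c-cKO SD library 6, an alternative chosen after seeing the data. It was 1 to 2 when 1 library was left out. The Mef2c-cKO response count of 9 was 34 with weights, 26 with DESeq2, 15 over all libraries, 2 without both libraries and 5 to 12 with 1 left out. The Mef2c f/f count of 5 was 0 with CPM as deposited, quantile normalization, no filter, limma without a trend or all libraries, 11 with a minimum of 5 CPM, 1602 with weights, 288 with DESeq2, 13 after the GC correction, 77 without both libraries and 0 to 109 with 1 left out. The count against wild-type mice, 76, was 6 with CPM as deposited, 23 with edgeR, 927 with DESeq2 and 5 to 521 with 1 left out. The Mef2c genotype difference was 0.098 to 0.27 with 1 left out, with an exact permutation p of 0.0404 at 0.27. The causes were not tested.

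Animals of the 2 sleep conditions share numbers, but same-numbered deviations correlated at 0.039 to 0.22 in Mef2c f/f and 0.071 and 0.14 in Mef2c-cKO, and Mef2c f/f CS library 1 correlated best with another number (0.29), so they were not treated as pairs. With a replicate block the interaction count was 3 and the Mef2c-cKO count 4. With the block and the GC correction the counts were 6, 4 and, in Mef2c f/f, 262.

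Values whose sign changed, none of them past the adjusted p, were those of 8 genes. Tbx20 was -2.14 with edgeR and -0.999 with DESeq2. With 1 library left out, Arntl ranged from -0.0346 to 0.297, Per2 from -0.232 to 0.0549 (above 0 in 3 fits), Mef2a from -0.0564 to 0.0483 (above 0 in 5), Mef2d from -0.00096 to 0.15 and Fos from -1.34 to 0.186. Per2 was 0.14 and Mef2a 0.00446 with weights. With the block Mef2c was 0.0725, Mef2a 0.0265 and Mef2d -0.0243, and with block and GC correction Mef2c was 0.0979, Mef2a 0.0383, Mef2d -0.12 and Npas4 -0.0090. With the GC correction alone Mef2a was 0.0631 and Mef2d -0.0114. Mef2c was 0.0443 without both libraries. Fos was 0.0315 with edgeR and 0.0561 with DESeq2. The unadjusted 95% interval of an interaction reached a median of 0.38 to either side on the log2 scale. It rests on 3 or 4 libraries a group and does not cover the changes with processing given above.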
